A study of Mus musculus with 12 samples.

Results

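The genes described are 9 enzymes and enzyme regulators that break down branched-chain amino acids, lysine and glutamate: Bcat2, Bckdha, Bckdhb, Dbt, Bckdk, Ppm1k, Ivd, Aass and Glud1. They were chosen by name, out of the 49315 genes of the count files, with earlier results of these data known. The same 4 groups had been seen when the choice was made, so the members' levels and fold changes are given as a description, without p-values. Where a member is said to be called, or to lose or gain a call in a refit, that too describes these same data. It is no independent support. All 9 were among the 16844 genes that passed the filter on low counts. The libraries were made from total RNA of MIN6 cells, a mouse pancreatic β-cell line that grew out of an insulinoma, and all cells were labelled WT. The treatments, with 3 libraries each, were control, 16 h without amino acids (called starved here), amino acids re-added for 3 h, and amino acids re-added for 3 h together with Rap, an agent the labels do not spell out. The labels give DMEM with 15% FBS and 2 mM glutamine as the growth medium. They do not give the make-up of the amino acid-free medium, the dose of Rap, the length of starvation before re-addition, or whether replicates were cultured separately. The spread between replicates, on which every p-value rests, may therefore be technical.

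Branched-chain amino acids (leucine, isoleucine and valine) lose their amino group to 2-oxoglutarate first, and the keto acids that result are then committed to breakdown by the branched-chain keto acid dehydrogenase complex of the mitochondrial matrix. A kinase switches that complex off and a phosphatase switches it on again. Lysine enters its own breakdown route through a bifunctional enzyme, and the amino groups of all these routes collect in glutamate, which glutamate dehydrogenase opens to 2-oxoglutarate and ammonia. In β-cells, leucine activates glutamate dehydrogenase and thereby favours insulin secretion, so these routes connect amino acid supply to the secretory fuel supply.

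Each library held between 18555958 and 25631056 counts. Summed markers of β-cells (11 genes) stood between 34777 and 57232 CPM (counts scaled to library size) in all 12 libraries. Markers of other cells were present too. The sum over 29 fibroblast, leukocyte and endothelial genes, none of them at 0 in all libraries, was 1663 to 1977 CPM in control, 116 to 1628 in starved, 112 to 663 in re-added and 105 to 115 CPM in Rap libraries. Starved replicates 1 and 3 and re-added replicate 1 stood apart from the rest of their groups, and 6 lung epithelial markers followed the same order (1514 to 1814 CPM in control, 40.1 to 48.6 CPM with Rap). Because this moves with the groups, fold changes between libraries of like marker level are given below beside the members the results turn on. Those fits compare starved replicate 1 with the control libraries, starved replicate 2 with re-added replicates 2 and 3 or the Rap libraries, and Rap with re-added replicates 2 and 3, and a lone library is taken to vary like the other groups. No re-added library matched the control level, so for that comparison the marker sum was fitted as a covariate. The labels do not say why these markers were present, and whether such cells were in the cultures was not tested. In bulk RNA, fewer cells of a type and less RNA per cell cannot be told apart.

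The promoter windows of the 3 members whose levels ranged widest over the groups are shown to place them in sequence, 250 bases before to 50 after the start site, 5′ to 3′ on the gene's strand, from RefSeq on GRCm38.p6. Capitals mark CCAAT or its reverse complement ATTGG, a box chosen after the sequences had been seen. The Bckdha window lies at chr7:25658712-25659011 on the minus strand, the Bckdhb window at chr9:83924887-83925186 on the plus strand, and the Aass window at chr6:23132937-23133236 on the minus strand.
Bckdha: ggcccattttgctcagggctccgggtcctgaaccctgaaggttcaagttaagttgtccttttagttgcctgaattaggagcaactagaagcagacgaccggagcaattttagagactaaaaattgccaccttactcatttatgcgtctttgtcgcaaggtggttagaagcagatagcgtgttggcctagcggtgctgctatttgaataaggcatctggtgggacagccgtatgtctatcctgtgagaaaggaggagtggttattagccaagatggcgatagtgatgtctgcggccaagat
Bckdhb: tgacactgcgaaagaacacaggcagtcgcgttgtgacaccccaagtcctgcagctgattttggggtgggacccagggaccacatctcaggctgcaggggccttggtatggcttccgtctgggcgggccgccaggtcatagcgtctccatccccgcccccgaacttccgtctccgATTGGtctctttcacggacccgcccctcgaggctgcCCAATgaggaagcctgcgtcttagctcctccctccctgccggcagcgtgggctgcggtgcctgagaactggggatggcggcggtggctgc
Aass: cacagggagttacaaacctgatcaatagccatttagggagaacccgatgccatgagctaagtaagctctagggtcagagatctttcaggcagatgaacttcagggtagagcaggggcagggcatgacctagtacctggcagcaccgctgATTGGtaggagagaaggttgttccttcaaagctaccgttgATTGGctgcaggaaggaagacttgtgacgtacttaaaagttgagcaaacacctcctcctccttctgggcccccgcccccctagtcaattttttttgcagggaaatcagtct

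RefSeq held such a window for 8 of the 9 members (Dbt was unmatched). The CCAAT box, searched on both strands, was in 37.4% of 32851 windows of the same length. It lay at -76 and -40 from the start site in Bckdhb, at -101 and -61 in Aass, at -119 in Bckdk, at -138 and -78 in Ppm1k, and at -131, -77, -47 and -23 in Ivd, with no match in the windows of Bckdha, Bcat2 and Glud1. Further motifs were searched on both strands, none of which contains another: the E-box CACGTG (7.15% of all windows), the FoxO core TGTTTAC (3.65%) and the amino acid response pattern TGATGNAA (3.97%). None of the 8 windows held any of them. A match is a run of letters, not a measured binding site, and GC content ranged from 48.0% (Bckdha) to 81.0% (Glud1).

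The members did not move as one block. Bckdha stood high in starved and Rap libraries and low in control and re-added ones, whereas Bckdhb, its partner subunit, was highest in control and lowest with Rap. Aass and, less steeply, Glud1 were above control after re-addition with or without Rap, and the Ivd libraries of the 4 groups overlapped. A call here means an adjusted p under 0.05 in edgeR's quasi-likelihood test over all genes. In starved against control libraries, 1 of 9 members was called higher and 4 lower, where 24.3% of all tested genes were called higher and 14.6% lower. In re-added against starved, 5 were called higher and 2 lower (18.4% and 18.8% of all genes). In Rap against re-added, 1 was called higher and 1 lower (4.55% and 3.43%). In re-added against control, 3 were called higher and 4 lower (24.8% and 24.5%), and in Rap against starved, 3 were called higher (20.2% of all genes, beside 23.9% called lower). Since the members were chosen with these contrasts known, nothing is read from those counts. The median log2 fold change of the 9 members was -0.09, 0.28, 0.11, -0.06 and 0.10 in these comparisons in turn, against 0.01, -0.06, 0.00, 0.02 and -0.03 over all tested genes. The comparisons share libraries, so they are not independent of one another.

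**Figure D1:**
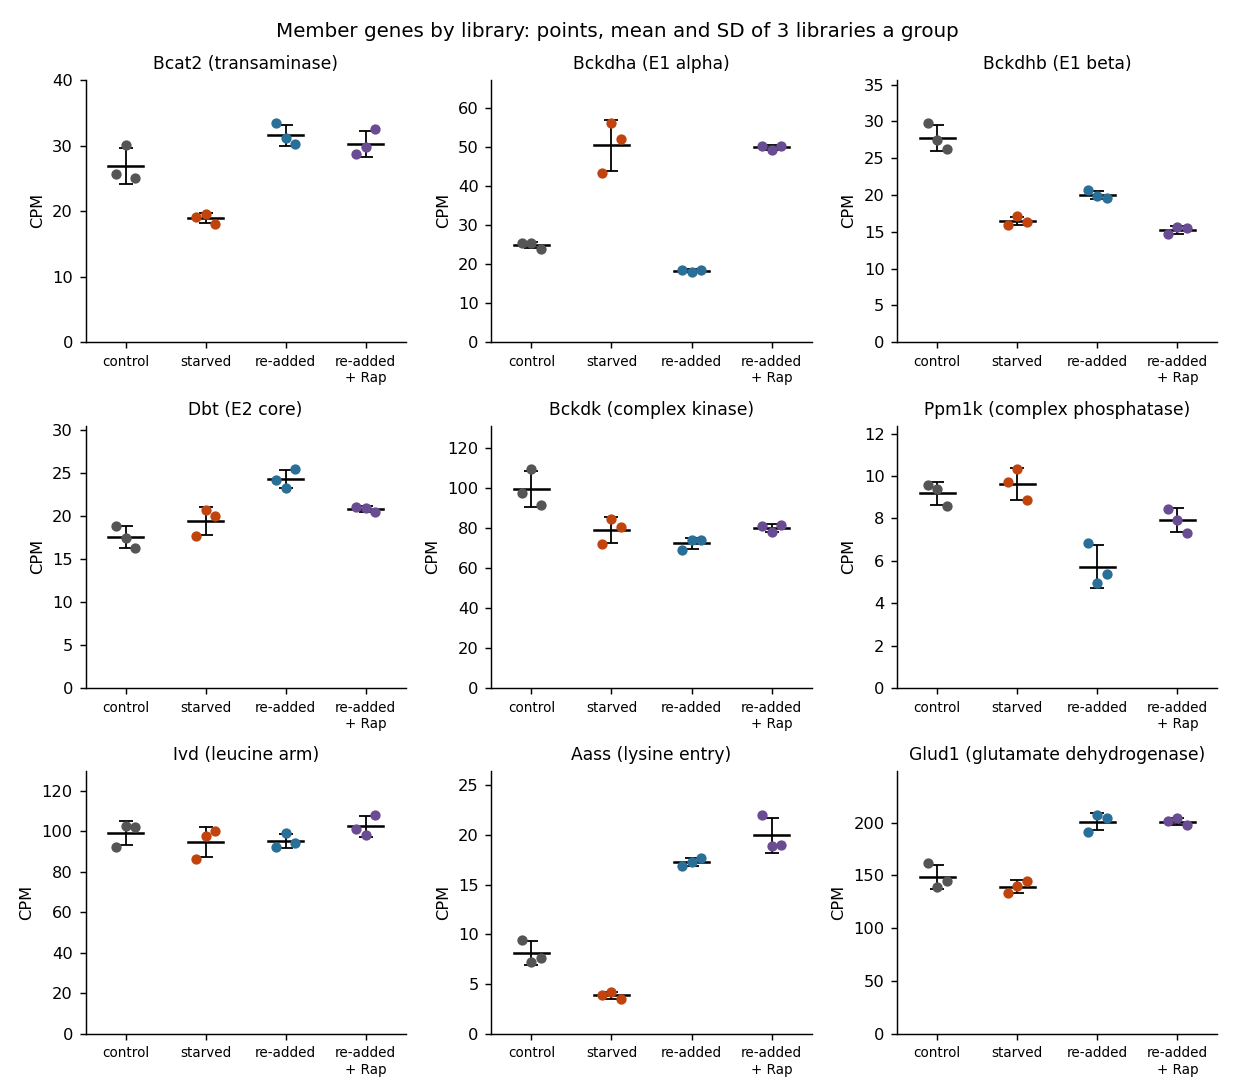
CPM of the 9 members in each of the 12 libraries, 1 panel per gene with its own axis starting at 0, points for libraries and bars for the mean and SD of 3. Bckdha reads 43.3 to 56.0 CPM in starved and 49.2 to 50.4 in Rap libraries but 17.9 to 25.4 elsewhere, while Ivd reads between 86.2 and 108.

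Bcat2 (ENSMUSG00000030826, chr7:45570153-45589711, plus strand) encodes the mitochondrial branched-chain aminotransferase, which takes the amino group off leucine, isoleucine and valine. Its level was 25.8, 30.1 and 25.01 CPM in the control libraries, 19.2, 19.6 and 18.1 in starved, 33.4, 31.2 and 30.3 in re-added, and 28.7, 29.8 and 32.5 CPM with Rap. The starved libraries lay below all others. Re-added libraries lay just above control ones (lowest 30.3, highest control 30.1), and Rap libraries overlapped both. On the log2 scale the fold change was -0.51 ± 0.09 (SE) for starved against control, 0.74 ± 0.09 for re-added against starved and -0.06 ± 0.09 for Rap against re-added. With libraries of like marker level these were -0.48, 0.71 and -0.04. Of its 3900 exon bases, 622 also belong to 0610005C13Rik on the opposite strand, which was at 0.252 to 1.37 CPM on average per group.

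Bcat1, the cytosolic aminotransferase, is not a member and was tested. It went from 27.8 ± 1.08 CPM (SD, n = 3) in control to 36.0 ± 3.11 in starved (log2 fold change 0.37, adjusted p = 0.00674, edgeR) and to 48.7 ± 1.38 in re-added libraries. With Rap it was 27.5 ± 2.84 CPM, lower than with re-addition alone (log2 fold change -0.82, adjusted p = 0.000223, edgeR). The ratio of Bcat2 to Bcat1 in TPM, a level per exon length, was 2.32 ± 0.224 in control, 1.27 ± 0.101 in starved, 1.55 ± 0.112 in re-added and 2.66 ± 0.420 in Rap libraries (SD, n = 3 each). Slc25a44, the mitochondrial carrier for branched-chain amino acids, rose from 98.1 ± 15.4 to 184 ± 14.9 CPM in starved libraries (0.91 on the log2 scale, edgeR's adjusted p = 5.25e-05). It fell again to 99.1 ± 3.74 CPM after re-addition (log2 fold change -0.89, adjusted p = 4.3e-05).

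Bckdha (ENSMUSG00000060376, chr7:25629946-25658981, minus strand) encodes the α subunit of the decarboxylase component, E1, of the keto acid dehydrogenase complex, the subunit that the kinase phosphorylates. It read 25.3, 25.4 and 24.0 CPM in control, 43.3, 56.0 and 52.1 in starved, 18.5, 17.9 and 18.5 in re-added, and 50.4, 49.2 and 50.3 CPM in Rap libraries. Starved and Rap libraries overlapped, both lay above every control library, and every control library lay above every re-added one. Starved libraries stood at a log2 fold change of 1.02 ± 0.09 against control, and the other changes were -1.46 ± 0.09 for re-added against starved, 1.45 ± 0.09 for Rap against re-added and -0.02 ± 0.09 for Rap against starved. With libraries of like marker level these were 0.81, -1.56, 1.43 and -0.12. Re-added against control stood at -0.44, and at -0.61 with the marker sum as a covariate. The promoter of Bckdha, shown above, held none of the 4 motifs.

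What was counted for Bckdha needs care, because 1171 of its 1899 exon bases (61.7%) also belong to B3gnt8, a glycosyltransferase gene on the opposite strand. Among 153 genes longer than 400 bases whose exons are wholly shared with opposite-strand genes, 1 (0.654%) had any count, against 66.2% of 29850 genes with no shared bases. Reads on bases shared across strands were therefore almost never counted, and the Bckdha values rest on 728 unshared bases. The group differences are those of these bases, and the TPM of Bckdha, which divides by the full length, is too low. Its full length is 2.61 times its unshared bases. Whether reads that cross into shared bases were counted was not tested, so that factor is not an upper limit. In the same way the TPM of Bcat2, with 622 of 3900 bases shared, is too low, its full length being 1.19 times its unshared bases. That bears on the level of its ratio to Bcat1. B3gnt8 itself averaged 8.26 CPM in control, 11.4 in starved, 5.86 in re-added and 9.78 CPM in Rap libraries.

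Bckdhb (ENSMUSG00000032263, chr9:83925145-84124240, plus strand) encodes the β subunit of the same E1 component and shares no exon base with another gene. Its level was 29.7, 27.5 and 26.2 CPM in control, 16.0, 17.1 and 16.4 in starved, 20.6, 19.9 and 19.6 in re-added, and 14.6, 15.6 and 15.6 CPM with Rap. The 4 groups did not overlap, in the order control, re-added, starved and Rap, although starved and Rap libraries were only just apart (lowest starved 16.0, highest Rap 15.6). Its log2 fold change was -0.75 ± 0.08 for starved against control, 0.28 ± 0.08 for re-added against starved and -0.39 ± 0.08 for Rap against re-added. With like marker levels these were -0.79, 0.27 and -0.40. The call of the second was lost there and with no filter on low counts, and that of the third was lost without Rap replicate 1. Rap against starved was not called in the main fit, but was called with limma on log2 TPM.

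The subunits of E1 are joined in the enzyme as equal partners, so their ratio was taken per length within each library. The Bckdha to Bckdhb ratio of TPM was 0.852 ± 0.0375 in control, 2.91 ± 0.287 in starved, 0.869 ± 0.0226 in re-added and 3.11 ± 0.143 in Rap libraries (SD, n = 3 each). Control and re-added libraries thus had nearly the same ratio, and starved and Rap libraries both lay above them without overlap. Counted per unshared base, an alternative chosen after seeing the data, the ratios became 2.22, 7.58, 2.27 and 8.12. The level of the ratio thus depends on the length used. The swap of length multiplies every library's ratio by the same factor, so it could not change the ordering of the groups. For the sister pyruvate dehydrogenase complex the corresponding ratio, Pdha1 to Pdhb, was 0.143 ± 0.0145, 0.165 ± 0.00203, 0.205 ± 0.00903 and 0.173 ± 0.00664 in the same order of groups. It was highest in re-added libraries, the group where Bckdha was lowest.

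**Figure D2:**
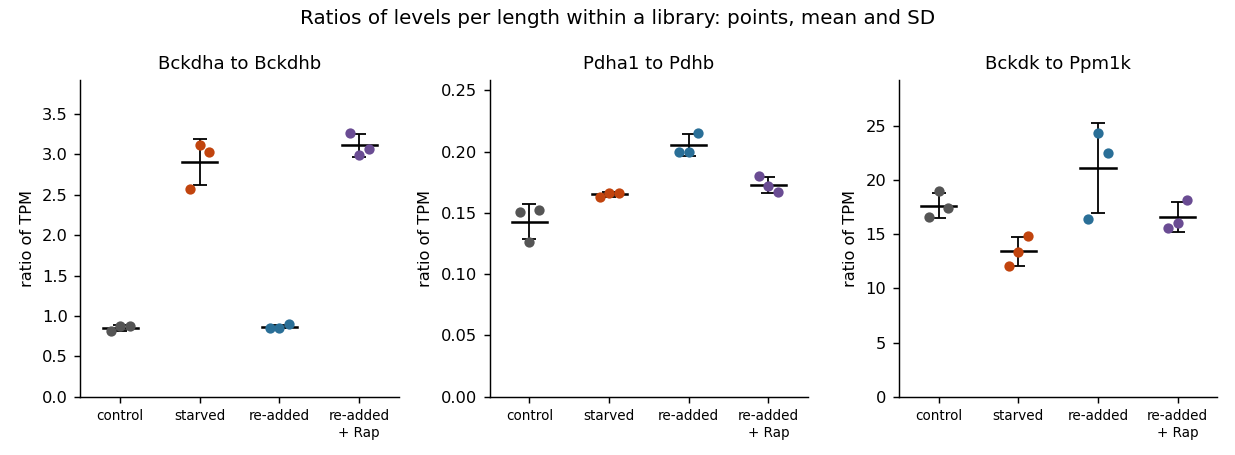
Ratios of TPM between paired genes within each library: Bckdha to Bckdhb, Pdha1 to Pdhb, and Bckdk to Ppm1k, on axes that start at 0, with points for libraries and bars for the mean and SD of 3. The first ratio is near 0.852 and 0.869 in control and re-added libraries and near 2.91 and 3.11 in starved and Rap libraries.

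Dbt (ENSMUSG00000000340, chr3:116513070-116549981, plus strand) encodes the E2 component, the acyltransferase core of the complex. It was 18.8, 17.5 and 16.3 CPM in control, 17.6, 20.6 and 20.0 in starved, 24.1, 23.2 and 25.4 in re-added, and 21.0, 21.0 and 20.4 CPM with Rap. The re-added libraries lay above all others, and starved libraries overlapped both control and Rap libraries. Fold changes on the log2 scale were 0.15 ± 0.09 for starved against control, 0.32 ± 0.09 for re-added against starved, -0.22 ± 0.09 for Rap against re-added and 0.47 for re-added against control. The call for re-added against starved was lost without re-added replicate 3 and at like marker level (0.30). That for re-added against control was lost with the marker covariate (0.36). Starved against control and Rap against re-added were not called in the main fit, but both were called with limma on log2 TPM. The latter was also called with only the 6 libraries compared. Dld, the E3 component that this complex shares with its sister complexes, did not pass the test in the 3 main comparisons with all libraries, and was called for re-added against starved without starved replicate 2 (0.20, adjusted p = 0.0317, edgeR). Dld was higher in re-added than in control libraries, without overlap (log2 fold change 0.22, adjusted p = 0.0253, edgeR), a call lost without control replicate 3 or re-added replicate 2 or 3 (adjusted p = 0.0555 to 0.0800). It read 133 ± 7.54, 144 ± 12.5, 155 ± 3.09 and 143 ± 2.53 CPM in control, starved, re-added and Rap libraries.

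Bckdk (ENSMUSG00000030802, chr7:127904082-127910221, plus strand) encodes the kinase that inactivates the complex. Its level was 97.8, 109 and 91.4 CPM in control, 71.8, 84.5 and 80.4 in starved, 69.1, 74.1 and 74.0 in re-added, and 80.8, 77.9 and 81.6 CPM with Rap. Control libraries lay above all others. Its log2 fold change was -0.34 ± 0.08 for starved against control (-0.46 at like marker level), -0.12 ± 0.08 for re-added against starved and 0.15 ± 0.08 for Rap against re-added. The second was not called in the main fit, but was called with limma on log2 TPM.

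Ppm1k (ENSMUSG00000037826, chr6:57506502-57535468, minus strand) encodes the phosphatase that reactivates it, at 104 to 250 counts a library. It was 9.60, 9.41 and 8.58 CPM in control, 9.70, 10.3 and 8.85 in starved, 6.86, 4.95 and 5.37 in re-added, and 8.46, 7.94 and 7.33 CPM with Rap. The re-added libraries were the lowest of the 4 groups without overlap, and control and starved libraries overlapped. Its log2 fold change was 0.06 ± 0.14 for starved against control, -0.75 ± 0.15 for re-added against starved and 0.47 ± 0.15 for Rap against re-added. The last was not called among all libraries. It was called at like marker level (0.59), where the only library left out was re-added replicate 1, the highest of its group. The marker covariate (0.49) and DESeq2 also gave a call. DESeq2 called more genes there in general, 1135 higher and 1171 lower over all genes, against 766 and 578 in the main fit. Re-added against control (-0.68) lost its call with the marker covariate. The ratio of kinase to phosphatase in TPM was 17.6 ± 1.196 in control, 13.4 ± 1.37 in starved, 21.1 ± 4.14 in re-added and 16.6 ± 1.38 in Rap libraries. Starved libraries lay below the other groups, and the re-added libraries were widely spread.

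Ivd (ENSMUSG00000027332, chr2:118861954-118882909, plus strand) encodes isovaleryl-CoA dehydrogenase, the next step of the leucine branch. It read 92.3, 102 and 102 CPM in control, 86.2, 97.5 and 100.1 in starved, 92.1, 99.0 and 94.2 in re-added, and 101.1, 98.0 and 107.9 CPM in Rap libraries. The groups overlapped, with log2 fold changes of -0.07 ± 0.08, 0.01 ± 0.08 and 0.11 ± 0.08 in the 3 main comparisons. With upper-quartile factors, starved against control was -0.21 and was called. Its group means of log2 CPM spanned 0.12, the narrowest range of the 9 members.

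Aass (ENSMUSG00000029695, chr6:23072173-23132986, minus strand) encodes the aminoadipic semialdehyde synthase that opens lysine breakdown, at 78 to 415 counts a library. It was 9.44, 7.25 and 7.66 CPM in control, 3.88, 4.17 and 3.505 in starved, 16.9, 17.3 and 17.7 in re-added, and 22.01, 18.9 and 19.0 CPM with Rap. No groups overlapped, in rising order starved, control, re-added and Rap. In log2 terms the changes were -1.08 ± 0.13 for starved against control, 2.17 ± 0.13 for re-added against starved, 0.21 ± 0.12 for Rap against re-added and 1.09 for re-added against control. The first 3 were -1.06, 2.13 and 0.17 at like marker level, and the last was 0.98 with the marker covariate. Its group means of log2 CPM spanned 2.23, against 1.43 for Bckdha and 0.84 for Bckdhb.

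Glud1 (ENSMUSG00000021794, chr14:34310727-34345144, plus strand) encodes glutamate dehydrogenase, the enzyme that leucine activates in β-cells. Its level was 161, 139 and 145 CPM in control, 133, 140 and 145 in starved, 191, 207 and 205 in re-added, and 201, 204 and 198 CPM with Rap. Re-added and Rap libraries overlapped and lay above all control and starved ones, which overlapped in turn. In log2 terms the changes were -0.09 ± 0.07 for starved against control, 0.53 ± 0.07 for re-added against starved, -0.00 ± 0.07 for Rap against re-added and 0.53 ± 0.07 for Rap against starved. At like marker level these were -0.14, 0.62, -0.06 and 0.57. Starved against control was not called in the main fit, but was called with upper-quartile factors. Per length, and leaving out Bckdha, Glud1 had the highest TPM of the members in every group (96.8 ± 13.0 in control) and Ppm1k (4.06 ± 0.286 in control) or, in starved libraries, Aass (2.92 ± 0.283) the lowest.

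**Figure D3:**
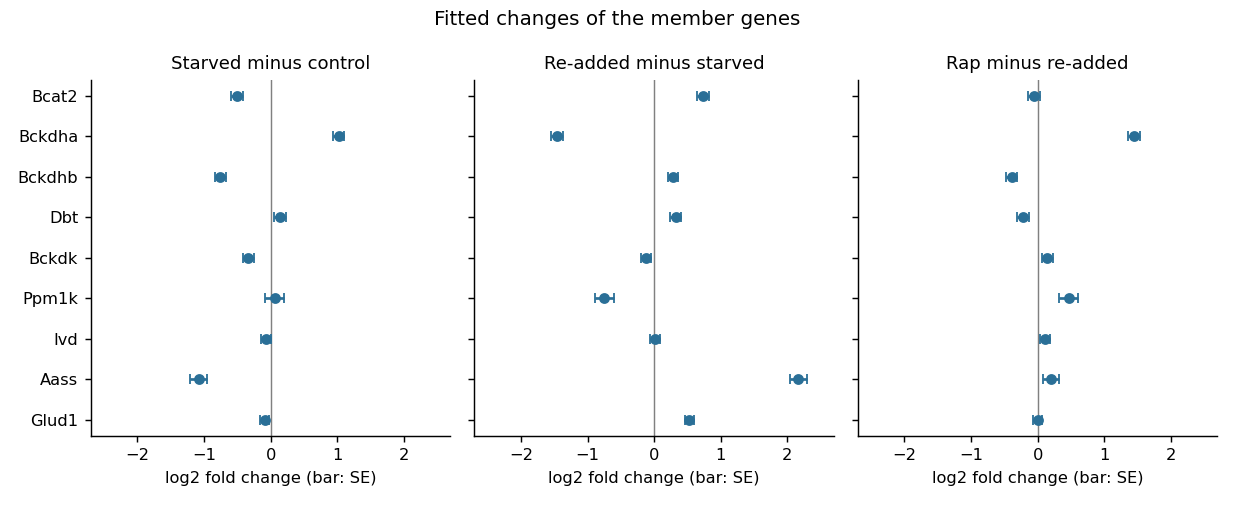
The log2 fold change of each member with its standard error in the 3 main comparisons, from the edgeR fit over all genes. Aass reads 2.17 and Bckdha -1.46 in re-added against starved libraries, and Bckdha reads 1.45 in Rap against re-added libraries where Aass reads 0.21 and Glud1 -0.00.

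Across the 12 libraries, Aass followed Glud1 (Pearson r of log2 CPM 0.94) and Bcat2 (0.90), while Bckdha ran against Bckdhb (-0.69) and Ppm1k against Glud1 (-0.77). The 12 points fall into 4 treatment groups and share their libraries, so these are descriptions. Among 11045 genes with a mean of at least 5 CPM, the named genes most like Aass were Gcnt1 (0.99, means 30.8, 17.4, 50.1 and 54.3 CPM in control, starved, re-added and Rap libraries) and Pdia4 (0.99, 335, 234, 586 and 582 CPM). Those most like Bckdha were Rnf167 (0.99, 91.8, 129, 72.8 and 121 CPM) and Bsdc1 (0.99, 54.2, 86.2, 45.0 and 79.7 CPM). Those most like Bckdhb were Actr3 (0.98, 282, 191, 229 and 190 CPM) and Slc39a8 (0.98, 223, 57.8, 78.0 and 48.3 CPM).

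The other genes of these routes were read from lists of 110 genes, of which 97 passed the filter on low counts. The other 13 were below it. In starved against control libraries 19 of the 97 rose and 23 fell (edgeR, adjusted p under 0.05), beside 24.3% and 14.6% of all genes. With upper-quartile scaling alone changed, the split was 18 and 33. With limma on TPM, where unit, filter, scaling and test all differ, it was 30 and 17. The median log2 fold change of all genes was -0.13 and 0.14 under these settings, against 0.01. The median of the 97 was -0.05.

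In the glutamate list, 3 of 14 tested genes rose and 2 fell under starvation. Gpt2, which passes amino groups between alanine and glutamate in mitochondria, rose from 30.2 ± 3.23 to 110 ± 11.8 CPM (1.86 on the log2 scale, edgeR's adjusted p = 1.69e-07). Hadh, a fatty acid oxidation enzyme that also restrains glutamate dehydrogenase in β-cells, fell from 178 ± 20.1 to 88.5 ± 4.70 CPM (-1.01, adjusted p = 5.1e-06).

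In the lysine list 2 of 11 tested genes rose and 5 fell. Dhtkd1, a 2-oxoadipate dehydrogenase subunit, rose from 2.18 ± 0.423 to 4.60 ± 0.287 CPM (1.08, adjusted p = 0.00267), the opposite direction to Aass. The isoleucine and valine list had 2 of 12 higher and 3 lower, among them Acat1, the thiolase of the isoleucine route, at 223 ± 18.7 in control and 117 ± 8.47 CPM in starved libraries (-0.94, adjusted p = 5.01e-06). Of the leucine list 1 of 5 fell. Mccc1 and Mccc2, the methylcrotonyl-CoA carboxylase subunits after Ivd, did not pass the test (log2 fold changes 0.05 and -0.08).

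Of 13 sister complex genes 4 rose and 2 fell. Pdk1, a kinase of pyruvate dehydrogenase, fell from 131 ± 16.8 to 34.5 ± 3.296 CPM (-1.93 on the log2 scale, edgeR's adjusted p = 1.69e-07). Pdpr, a regulatory subunit of its phosphatase, rose from 16.4 ± 8.44 to 33.7 ± 2.55 CPM (1.03, adjusted p = 0.0165). Control replicate 2 stood at 6.76 CPM against 22.3 and 20.2 in the other controls, and without it the change was 0.66 (adjusted p = 0.000417). Without starved replicate 3 the Pdpr call was lost (adjusted p = 0.0528). Of 7 regulators 3 rose. Ppargc1a, a coactivator of mitochondrial genes, went from 7.79 ± 1.47 to 33.9 ± 4.76 CPM (2.12, adjusted p = 1.43e-06). Klf15, a factor known for inducing branched-chain breakdown genes in other tissues, averaged under 1 CPM in every group (0.691 ± 0.281 in control) and did not pass the test in any main comparison. Among the 23 tested genes of other amino acid routes 1 rose and 9 fell, beside 24.3% and 14.6% of all genes. Sdsl, a serine dehydratase relative, was among those that fell (-0.97, edgeR's adjusted p = 0.00524). With starved replicate 1 as the only starved library, at the marker level of the controls, fewer genes were called in both directions. That held among the 97 and over all genes.

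In re-added against starved libraries 31 of the 97 rose and 25 fell (18.4% and 18.8% of all genes), with a median of -0.06. Gpt2 fell to 38.0 ± 0.508 CPM (-1.53 on the log2 scale, edgeR's adjusted p = 4.52e-07). Slc25a12, a mitochondrial aspartate-glutamate carrier, fell from 113 ± 11.6 to 44.2 ± 2.28 CPM (-1.35, adjusted p = 4.18e-06), and Ppargc1a fell by 1.503 on the log2 scale (adjusted p = 9.15e-06). In the other direction Aldh4a1, which ends proline breakdown in glutamate, rose from 11.1 ± 0.936 to 21.3 ± 1.13 CPM (0.94, adjusted p = 3.18e-05). Phykpl, which breaks down phosphohydroxylysine, rose from 10.7 ± 1.09 to 19.9 ± 0.932 CPM (0.90, adjusted p = 3.52e-05). Sdsl rose (0.87, adjusted p = 0.0104, and 0.0545 without re-added replicate 2), as did Pdk3, another pyruvate dehydrogenase kinase (0.84, adjusted p = 6.82e-06), and Hadh (0.47, adjusted p = 0.000890). Mccc1 rose slightly (0.28, adjusted p = 0.0213), a call lost without re-added replicate 2 or 3 (adjusted p = 0.0556 and 0.0690), and Mccc2 did not pass the test (0.01). In the lists, 4 of 11 lysine genes rose and 3 fell, 5 of 12 isoleucine and valine genes rose and 3 fell, and 3 of 14 glutamate genes rose and 5 fell. At like marker level, with a lone starved library, fewer genes were called higher, both among the 97 and over all genes.

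Between Rap and re-added libraries 8 of the 97 rose and 6 fell (4.55% and 3.43% of all genes), with a median of -0.00. The split was 5 and 15 with limma on TPM. Leaving out re-added replicate 1, 2 or 3 or Rap replicate 2 or 3 left 5 that rose. Leaving out re-added replicate 2 or 3 or Rap replicate 1, 2 or 3 left 3 that fell, and without starved replicate 2 there were 10. Pdk2, a pyruvate dehydrogenase kinase, was 13.5 ± 1.73 CPM in re-added and 24.0 ± 1.49 in Rap libraries (log2 fold change 0.84, adjusted p = 0.00179, edgeR). Pdp1, the catalytic subunit of the opposing phosphatase, was 16.3 ± 0.646 and 27.8 ± 1.98 CPM (0.77, adjusted p = 0.00150). Aldh6a1, the last dehydrogenase of the valine route, rose to 49.3 ± 2.49 CPM (0.65, adjusted p = 0.000748), and Auh, the hydratase of the leucine route, rose to 49.0 ± 3.52 CPM (0.53, adjusted p = 0.00620). Atf4, the transcription factor of the amino acid response, fell from 304 ± 9.26 to 192 ± 12.4 CPM (-0.66, adjusted p = 0.00130), beside Bcat1, described above. Gcsh, a subunit of the glycine cleavage system (-0.41, adjusted p = 0.0287), and Slc25a22, a mitochondrial glutamate carrier (-0.36, adjusted p = 0.0413), also fell. Both calls were lost on leaving out re-added replicate 2 or 3 or any 1 Rap library (adjusted p = 0.0541 to 0.114 for Gcsh and 0.0713 to 0.171 for Slc25a22).

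**Figure D4:**
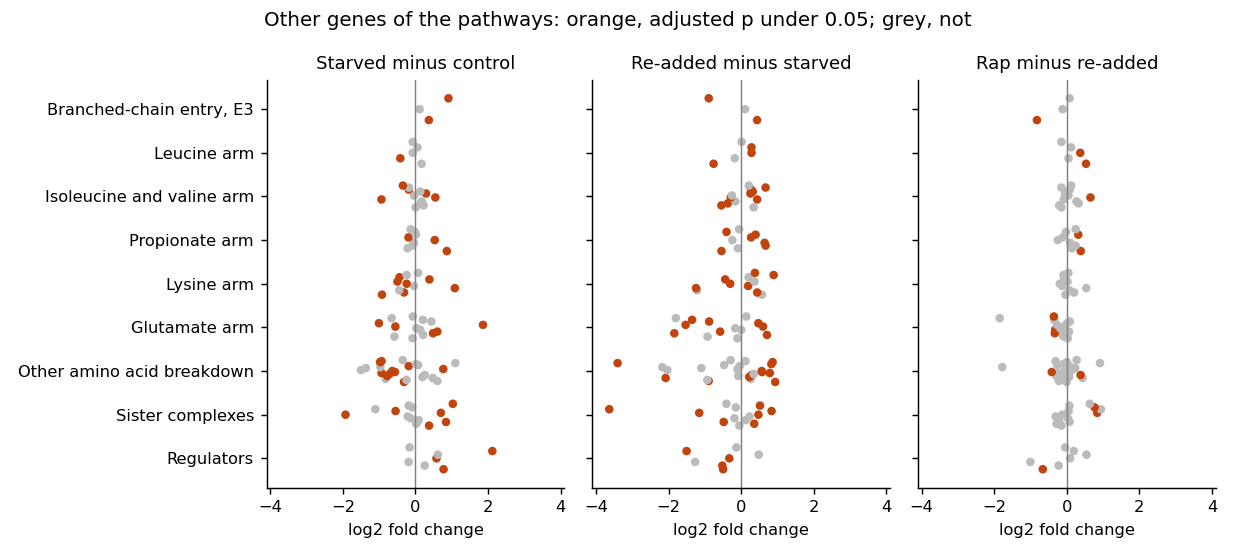
The log2 fold change of each of the 97 tested genes of the other lists in the 3 main comparisons, by list, orange where edgeR's adjusted p was under 0.05 and grey where not. Starvation and re-addition have 42 and 56 orange points on both sides of 0, and Rap against re-added has 14.

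Re-added against control had 30 of the 97 higher and 25 lower (24.8% and 24.5% of all genes). The split was 25 and 35 with upper-quartile scaling and 34 and 15 with limma on TPM. The lower count was 16 without control replicate 2 or re-added replicate 2 and 15 without re-added replicate 3, and the marker covariate left 10 higher and 15 lower. Over all genes that covariate left 1408 higher and 1420 lower, against 4172 and 4132 in the main fit. Rap against starved had 31 higher and 29 lower (20.2% and 23.9% of all genes), with a median of -0.08. The glutamate list had 9 of 14 lower and 3 higher in that comparison, where Glud1 itself stood 0.53 above starved libraries.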

How the data were processed

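Total RNA of 12 MIN6 libraries was read as paired ends of 150 bases, per the labels' protocols. The authors deposited raw read counts per gene, 1 table per library, and a table of TPM. Per the submitters' processing notes, Subread 2.0.1, limma 3.46.0 and GRCm38.p6 were used, with no role stated. No aligner, strand setting or annotation release is given in the sources used here. The deposited TPM equal the counts over exon length, rescaled, within 5.0e-05, and 0 of its columns had no library. Gene names are those of the TPM table (174 genes were unnamed).

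Counts were fitted in R 4.3.3 with edgeR 4.0.16. filterByExpr (minimum count 10, minimum total 15) left 16844 of 49315 genes, which held 99.9% of the counts. CPM use TMM factors, except those of the summed markers, which are scaled to the raw library totals. A single quasi-likelihood fit held all 12 libraries, with 8 residual degrees of freedom, and p-values were adjusted by Benjamini-Hochberg over all genes tested, with a threshold of 0.05. The scripts were tested on simulated data. Alternatives used limma 3.58.1 on log2(TPM + 1) and log2(TPM + 0.1), DESeq2 1.42.0, upper-quartile and DESeq2 size factors in edgeR, no filter, the 6 libraries compared, a replicate block, each library left out, a marker covariate and libraries of like marker level.

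The members and gene lists were chosen with earlier results of these data known. Named besides the members were Bcat1, Dld, Slc25a44, Mccc1, Mccc2, Hadh and Klf15, and up to 4 called genes of the lists per direction and main comparison, by size of fold change, with a group mean of at least 1 CPM. An item that this rule also named is not reported here. For likeness, 2 genes with the highest Pearson r of log2(CPM + 0.5) were taken for each of the 3 members with the widest range, leaving out clone names. For the other-cell markers, whose levels moved with the groups, the part in the pathway counts was not tested beyond the alternatives. Shared exon bases were computed from the exon coordinates in the count files.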

Additional observations from a re-analysis of the deposited data

How the results depend on the processing

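Of the 45 member fold changes, 24 were called, and all 24 kept their sign in every alternative run. Of these, 5 lost the call in some alternative, and 8 of the others gained one. Per comparison and direction, 3.43% to 24.8% of all tested genes were called. The members were chosen with these contrasts known and the comparisons share libraries, so nothing is read from these counts. Whether the replicate numbers pair the libraries could not be decided. Of 18 same-numbered pairs, 3 correlated above 0.1 (r from -0.277 to 0.846), and 4 of 12 libraries correlated best with their own number. The highest r was between starved and re-added replicate 1, which both carried high other-cell markers for their group, so marker level and pairing cannot be told apart there. With the replicate block, 45 of 45 member calls were the same, and 19 list genes were called higher and 20 lower in starved against control.

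For the 97 other genes, the main counts (higher, lower) were 19 and 23 in starved against control, 31 and 25 in re-added against starved, 8 and 6 in Rap against re-added, 30 and 25 in re-added against control and 31 and 29 in Rap against starved. Limma on TPM with a pseudocount of 1, of 0.1, and of 1 without filter gave 30, 30 and 30 higher in starved against control, 5, 5 and 5 higher and 15, 15 and 13 lower in Rap against re-added, and 15, 15 and 16 lower in re-added against control. Without a TPM filter it also gave 14 lower in starved against control and 20 higher in Rap against starved. In Rap against re-added, edgeR without a filter on low counts gave 5 higher, upper-quartile factors 11 lower and DESeq2 14 lower. With the 6 libraries compared there were 14 lower in starved against control, and 13 higher and 20 lower in Rap against re-added. At like marker level there were 5 higher in Rap against re-added, where 481 of all genes were called higher, against 766 in the main fit. The other fits at like marker level hold a lone starved library. There fewer genes were called, among the 97 and over all genes alike. The marker covariate gave 10 higher and 15 lower in re-added against control, beside 1408 and 1420 of all genes. Leaving out 1 library at a time gave 5 to 10 higher and 3 to 10 lower in Rap against re-added, and 15 to 30 lower in re-added against control. For limma and DESeq2 the cause was not tested, and the fits on fewer libraries have fewer samples.

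With 3 libraries a group, small differences in Aass and Ppm1k are limited by their counts (78 and 104 at the lowest).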
